A study of Mus musculus with 18 samples.

Results

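The enzymes described here build the O-linked sugar chains of mucins. They are 9 genes, A4gnt, Galnt6, Galnt7, Galnt12, C1galt1, Gcnt1, Gcnt3, B3gnt6 and Fut2, taken by identifier out of the 17204 genes in the table by their place in this pathway. The list was chosen with earlier results of these data known. Of the 9, 8 were bright enough to be tested and B3gnt6 was not. Expression was measured on 18 arrays of RNA from Brunner's glands, the mucus-secreting glands of the duodenal submucosa, cut out by laser capture microdissection from individual male CD-1 mice. Wild-type and GLP-1R-/- animals were taken untreated or at 6 h or 18 h following exendin-4, which made 6 groups of 3 mice. Exendin-4 activates the receptor for glucagon-like peptide 1, which by their label the GLP-1R-/- mice lack. Neither dose nor age is given in the sources used here. The labels name no vehicle-injected or time-matched controls, so injection, hour of collection and agonist cannot be told apart within a genotype. The samples are tissue, so fewer cells of a type and less RNA per cell cannot be told apart either.

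Mucin O-glycosylation starts in the Golgi when a GalNAc transferase of the Galnt family places N-acetylgalactosamine on a serine or threonine. C1galt1 extends this sugar with galactose to the core 1 structure, which Gcnt1 and Gcnt3 branch to core 2, while B3gnt6 makes the alternative core 3. Chains are then elongated and capped, by Fut2 with fucose and by A4gnt with a terminal alpha-linked N-acetylglucosamine that is characteristic of the mucin of Brunner's glands and of gastric gland mucous cells.

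In wild-type glands 6 h after exendin-4 the 2 core 2 branching enzymes changed in opposite directions: Gcnt1 rose 2.74-fold and Gcnt3 fell by 0.92 on the log2 scale, to a level 1.90-fold lower. By 18 h Gcnt1 was 3.75-fold below its 6 h level and Gcnt3 was 1.72-fold above its own. Both Gcnt3 calls were lost without wild-type 6 h replicate 9 (limma adjusted p = 0.0607 and 0.0592). In knockouts neither gene passed the test at either time, and 0% of all genes did. In wild-type glands 3.39% of all genes passed at 6 h and 0.196% at 18 h, against untreated mice. For Gcnt1 the genotypes differed in the 6 h change by a direct test, a call that was lost without any 1 of 5 arrays. For Gcnt3 that test did not pass with all arrays weighted equally, and it passed without knockout 6 h replicate 13 or with array quality weights, which gave that array little weight.

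Gcnt1 is the member whose level moved furthest, and the sequence before each of its starts in the RefSeq annotation is therefore shown. All 3 starts lie on the minus strand of chromosome 19 in GRCm38.p6. Each window holds the 250 bases before a start, read 5′ to 3′ on the gene's strand, and capitals mark matches to the TATA box letters TATAAA on either strand.
Gcnt1 window at chr19:17372845-17373094 (minus strand): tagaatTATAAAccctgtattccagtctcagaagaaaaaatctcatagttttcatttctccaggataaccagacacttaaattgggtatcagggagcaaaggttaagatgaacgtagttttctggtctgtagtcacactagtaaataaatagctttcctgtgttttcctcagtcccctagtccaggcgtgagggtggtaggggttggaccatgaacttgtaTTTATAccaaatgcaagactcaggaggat
Gcnt1 window at chr19:17356668-17356917 (minus strand): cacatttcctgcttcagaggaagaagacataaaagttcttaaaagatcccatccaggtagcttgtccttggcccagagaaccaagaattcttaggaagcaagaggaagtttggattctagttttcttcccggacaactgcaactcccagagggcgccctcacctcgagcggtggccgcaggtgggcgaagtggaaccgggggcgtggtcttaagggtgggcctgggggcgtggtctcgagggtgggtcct
Gcnt1 window at chr19:17339506-17339755 (minus strand): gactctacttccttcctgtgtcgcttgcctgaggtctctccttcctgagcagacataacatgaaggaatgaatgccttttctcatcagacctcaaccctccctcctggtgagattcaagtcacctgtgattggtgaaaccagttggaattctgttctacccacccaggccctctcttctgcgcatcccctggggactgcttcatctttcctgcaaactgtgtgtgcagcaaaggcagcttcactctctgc

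The first window held 2 TATAAA matches, one starting 244 bases before the start on the gene strand and one, written TTTATA above, starting 29 bases before it on the opposite strand. The other 2 windows held none. TATAAA occurred on either strand in 12.4% of the 32851 windows of the same length in the RefSeq table. The GC content of the 3 windows was 40.4%, 55.6% and 51.6% in the order shown. TGACG, the half-site of the cAMP response element, occurred in 17.8% of all windows and in none of these 3. Windows were at hand for 5 members, 8 in all: A4gnt, C1galt1 and Galnt7 with 1 each, Galnt6 with 2 and Gcnt1 with 3. Among them TGACG was found once, in a Galnt6 window, 39 bases before the start on the opposite strand. GGGCGG, the GC box, was found in 3 windows, those of C1galt1 and Galnt7 and 1 of Galnt6, against 32.7% of all windows. C1galt1 had 5 such matches in its window, Galnt7 2 and Galnt6 3. No match overlapped another. A match is a string of letters and not a site shown to be used, and the arrays do not tell which start is used.

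Signals from RMA are given as log2 values, so that a difference of 1 is a 2-fold change. RMA corrects background, normalises arrays to each other and summarises the probes of a gene. Array medians lay between 5.88 and 6.11. Differences were tested with limma over 12775 genes, those above 4.79, the 30th percentile of all values, on at least 3 arrays, and "called" means an adjusted p under 0.05. Overlap of arrays between groups is described and was not tested, since a permutation test of 3 arrays against 3 cannot give a p below 0.1. The share of all genes without overlap was not counted. Knockout 6 h replicate 13 stood apart from the other arrays: it correlated across all genes between 0.945 and 0.966 with them, while the other 17 arrays correlated between 0.970 and 0.995 with each other. Compared with the mean of replicates 14 and 15 of its group, its signal was lower for all 8 tested members. The deficit was 1.14 for A4gnt, 1.13 for Galnt12, 1.06 for C1galt1, 1.01 for Galnt6 and 0.88 for Gcnt3, and 0.39 for Galnt7, 0.31 for Gcnt1 and 0.15 for Fut2. B3gnt6 was higher on it, by 0.73. Over the table, replicate 13 had a median difference of -0.44 from the same mean among the brightest 10% of genes and 0.29 among the dimmest 30%. All groups share 1 estimate of the spread, so this array bears on the errors of every comparison. Leaving it out lowered the SE of A4gnt, Galnt6, Galnt12, C1galt1 and Gcnt3 in the comparisons made, while for Gcnt1, Galnt7 and Fut2 it raised some and lowered others. Results that it decides are given with and without it.

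**Figure D1:**
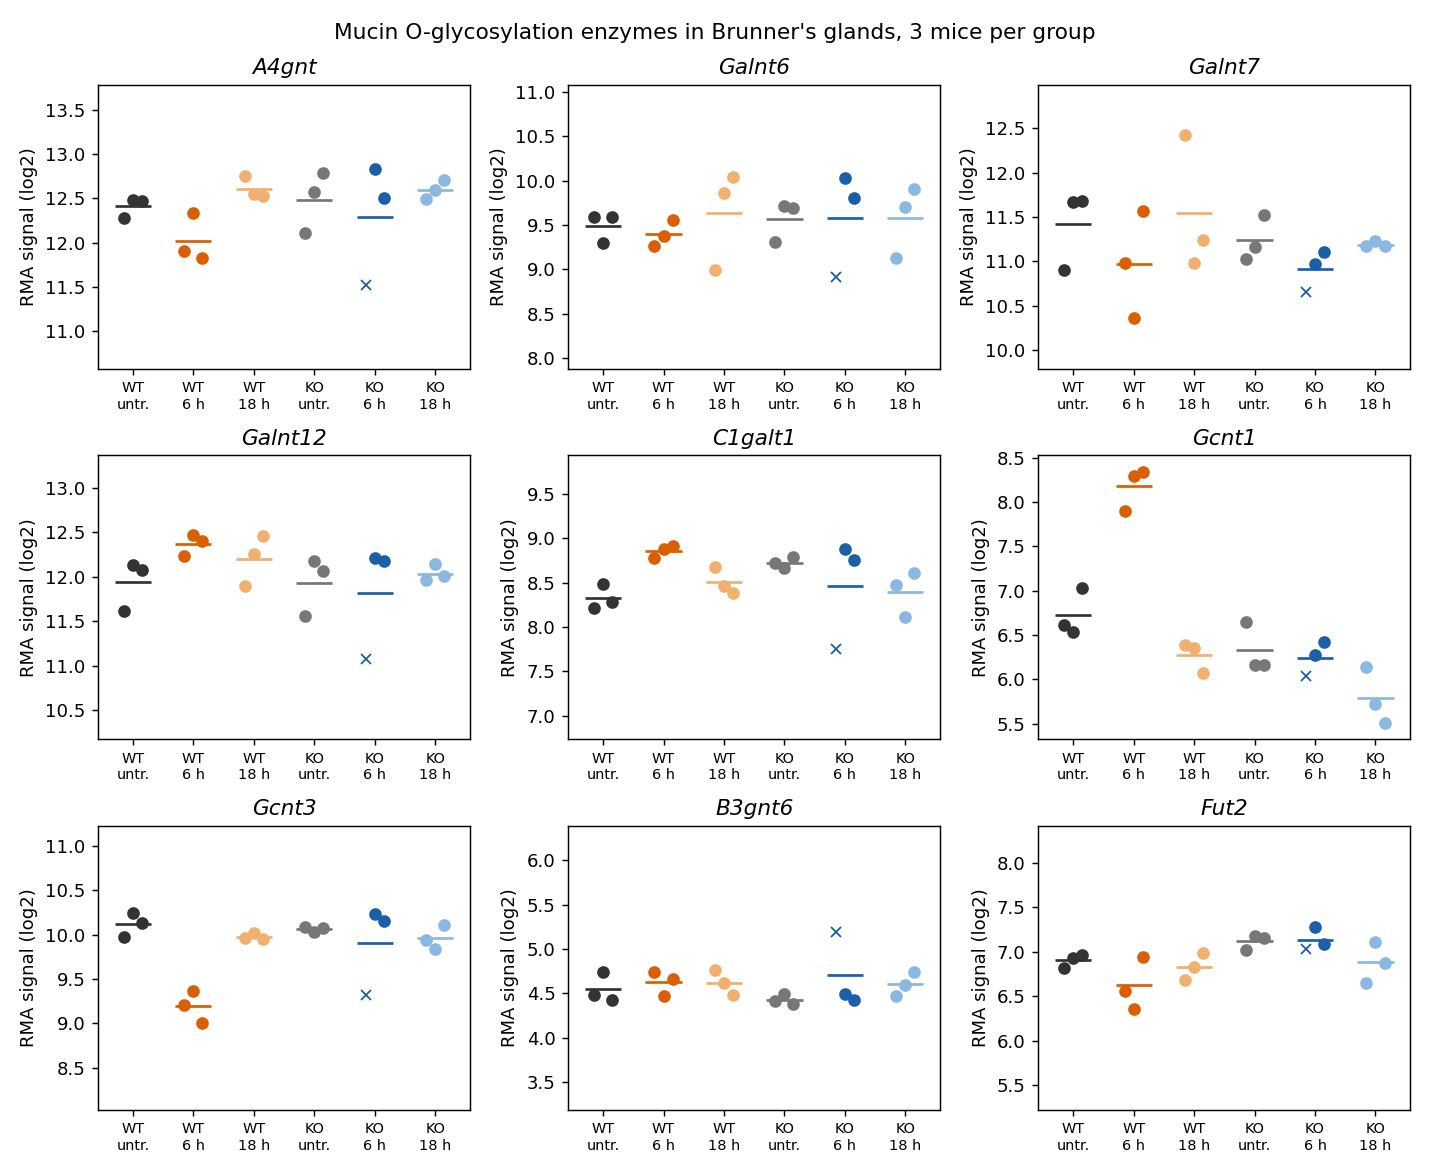
RMA signal (log2) of the 9 genes on each of the 18 arrays, in 6 groups of 3 mice (WT wild type, KO GLP-1R-/-, untr. untreated, 6 h and 18 h after exendin-4); points are arrays, bars are group means, the cross is knockout 6 h replicate 13, and every panel spans the same height in log2. Gcnt1 stands out at 6 h in wild-type mice, between 7.90 and 8.34, above every other array, and Gcnt3 is lower there, between 9.01 and 9.36.

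**Figure D2:**
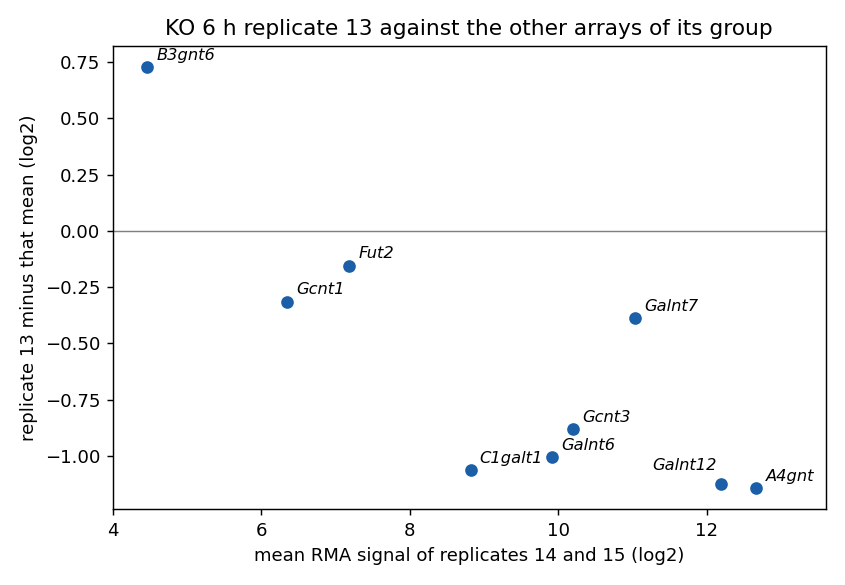
Knockout 6 h replicate 13 minus the mean of replicates 14 and 15 (vertical axis, log2) against that mean (horizontal axis, RMA signal, log2) for the 9 genes, 1 point each. The 8 tested genes lie below 0, A4gnt lowest at -1.14, and B3gnt6 lies above it at 0.73.

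Over the 6 groups together, limma's F test called Gcnt1 (adjusted p = 1.95e-05) and Gcnt3 (adjusted p = 0.0213) among the 8 tested members, where 9.53% of all genes were called. Without replicate 13 it called C1galt1 as well (adjusted p = 0.0221), with 16.9% of all genes called. The group means of Gcnt1 spanned 2.39 on the log2 scale, those of Gcnt3 0.92, and those of the other 6 tested members between 0.23 for Galnt6 and 0.64 for Galnt7. B3gnt6, which was not tested, had a range of 0.27.

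Gcnt1 (ENSMUSG00000038843_at), also called core 2 GlcNAc transferase 1, adds the N-acetylglucosamine that opens the core 2 branch. In untreated wild-type mice its signal was 6.61 in replicate 1, 6.53 in replicate 2 and 7.03 in replicate 19. At 6 h after exendin-4 it was 7.90, 8.30 and 8.34, and at 18 h 6.39, 6.35 and 6.07. All 6 h arrays lay above all untreated arrays and all 18 h arrays below them.

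In knockouts Gcnt1 was at 6.65, 6.16 and 6.17 untreated, at 6.03, 6.28 and 6.42 at 6 h and at 6.13, 5.72 and 5.51 at 18 h. The 6 h arrays overlapped the untreated ones in knockouts, and the 18 h arrays all lay below them. Ordered by mean, wild type at 6 h came first at 8.18 ± 0.243, followed by wild type untreated at 6.72 ± 0.268, knockout untreated at 6.32 ± 0.279, wild type at 18 h at 6.27 ± 0.174, knockout at 6 h at 6.24 ± 0.194 and knockout at 18 h at 5.79 ± 0.318 (SD, n = 3 each). Only the first of these groups was separated from its neighbour, while each of the other neighbouring pairs overlapped.

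In wild-type mice Gcnt1 rose at 6 h by a log2 difference of 1.45 (SE 0.194, limma adjusted p = 0.000561). From 6 h to 18 h its signal fell by 1.91 (SE 0.194, limma adjusted p = 1.73e-05). At 18 h its difference from untreated wild-type mice was -0.45 (95% interval -0.86 to -0.04, limma adjusted p = 0.524), which did not pass. In knockouts its difference from untreated mice was -0.08 at 6 h (95% interval -0.49 to 0.33, limma adjusted p = 0.877) and -0.54 at 18 h (95% interval -0.95 to -0.13, limma adjusted p = 0.853). The intervals, unlike the adjusted p, are not corrected for the number of genes. The wild-type 18 h change minus that of knockouts was 0.08 (95% interval -0.50 to 0.66, limma adjusted p = 0.999). Neither 18 h change was called, and whether the 2 are alike was not tested.

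Gcnt3 (ENSMUSG00000032226_at) branches core 1 to core 2 and core 3 to core 4, and is the form of the enzyme typical of mucin-secreting epithelia. Its signal in wild-type mice was 9.98, 10.25 and 10.14 untreated, 9.21, 9.36 and 9.01 at 6 h, and 9.96, 10.01 and 9.96 at 18 h. The 6 h arrays were separated from both other wild-type groups. In knockouts it was 10.08, 10.04 and 10.08 untreated, 9.32 in replicate 13, 10.24 and 10.16 at 6 h, and 9.94, 9.83 and 10.11 at 18 h. Replicate 13 was the lone knockout array within the range of the wild-type 6 h arrays. From the highest mean to the lowest the groups stood at 10.12 (wild type untreated), 10.07 (knockout untreated), 9.98 (wild type at 18 h), 9.96 (knockout at 18 h), 9.91 (knockout at 6 h) and 9.19 (wild type at 6 h). Among these neighbours the arrays of untreated knockouts and of wild-type mice at 18 h did not overlap, and the other pairs did.

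The mean of Gcnt3 in wild-type mice went from 10.12 ± 0.136 untreated to 9.19 ± 0.178 at 6 h (SD, n = 3 each), a log2 difference of -0.92 (SE 0.184, limma adjusted p = 0.00983). It rose by 0.78 between 6 h and 18 h (SE 0.184, limma adjusted p = 0.0109). Without wild-type 6 h replicate 9, the lowest array, the fall at 6 h was 0.83 and the later rise 0.69, with limma adjusted p of 0.0607 and 0.0592. Without replicate 13 the same differences of -0.92 and 0.78 had a limma adjusted p of 0.000107 and 0.000146. At 18 h the difference from untreated wild-type mice was -0.14 (95% interval -0.53 to 0.25, limma adjusted p = 0.887). In knockouts it was -0.16 at 6 h (95% interval -0.55 to 0.23, limma adjusted p = 0.737), or 0.13 without replicate 13, and -0.11 at 18 h (95% interval -0.50 to 0.28, limma adjusted p = 0.999).

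Gcnt1 and Gcnt3 can be followed together within each array as the log2 signal of Gcnt1 minus that of Gcnt3, a quantity whose changes, not its level, have a meaning. It was between -1.32 and -0.67 on the 3 wild-type 6 h arrays, with a mean of -1.02 ± 0.327 (SD, n = 3). On the other 15 arrays it lay between -4.60 and -3.11. The group means there were -3.40 ± 0.306 in untreated wild-type mice, -3.71 ± 0.162 in wild-type mice at 18 h, -3.74 ± 0.265 in untreated knockouts, -3.66 ± 0.344 in knockouts at 6 h and -4.17 ± 0.402 in knockouts at 18 h (SD, n = 3 each). Replicate 13, at -3.29, was inside the range of the other arrays by this measure. It was nonetheless the highest knockout array, the next being untreated replicate 4 at -3.44. The measure was chosen with the values known and was not tested.

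**Figure D3:**
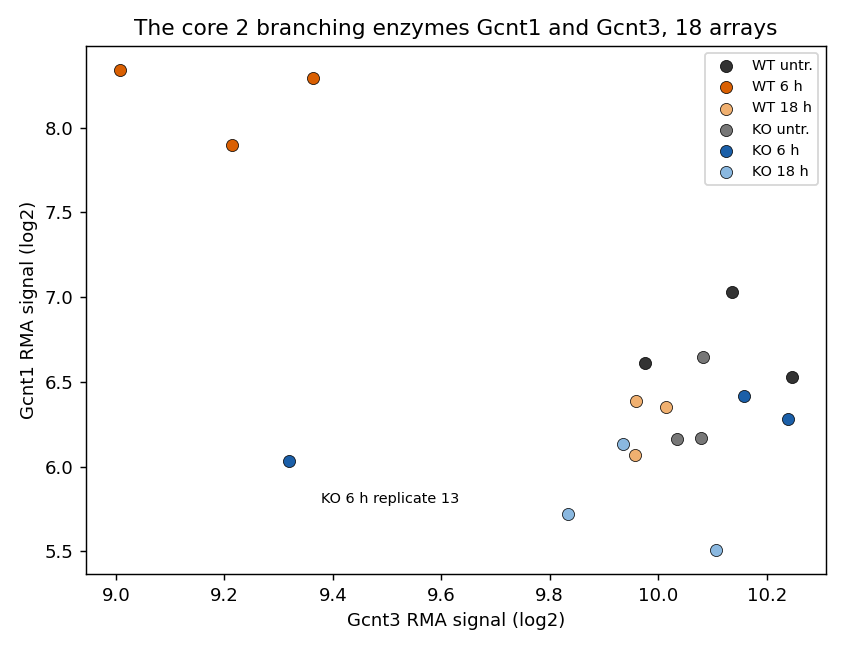
RMA signal of Gcnt1 (vertical axis, log2) against that of Gcnt3 (horizontal axis, log2), 1 point for each of the 18 arrays, coloured by group (WT wild type, KO GLP-1R-/-). The 3 wild-type 6 h arrays lie at the upper left, and knockout 6 h replicate 13 shares their low Gcnt3 signal, at 9.32, but not their Gcnt1 signal, which on it was 6.03.

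At 6 h in wild-type mice limma called 2 of the 8 tested members, 1 higher and 1 lower, where 3.39% of all genes were called. The median difference of the 8 was -0.19, against 0.02 over all tested genes. Between 18 h and 6 h the same 2 genes were called in wild-type mice, each in the opposite direction, where 10.9% of all genes were called, and both comparisons share the 6 h arrays. At 18 h against untreated wild-type mice limma called 0 members, where 0.196% of all genes were called, and 1 member, Gcnt1, had an unadjusted p under 0.05, as did 8.40% of all genes. In knockouts limma called 0 members at 6 h, at 18 h and between the times, and the share of all genes called was 0% in each of these comparisons. There 0, 1 and 1 members had an unadjusted p under 0.05, the latter 2 being Gcnt1, where 8.13%, 5.14% and 8.93% of all genes did.

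**Figure D4:**
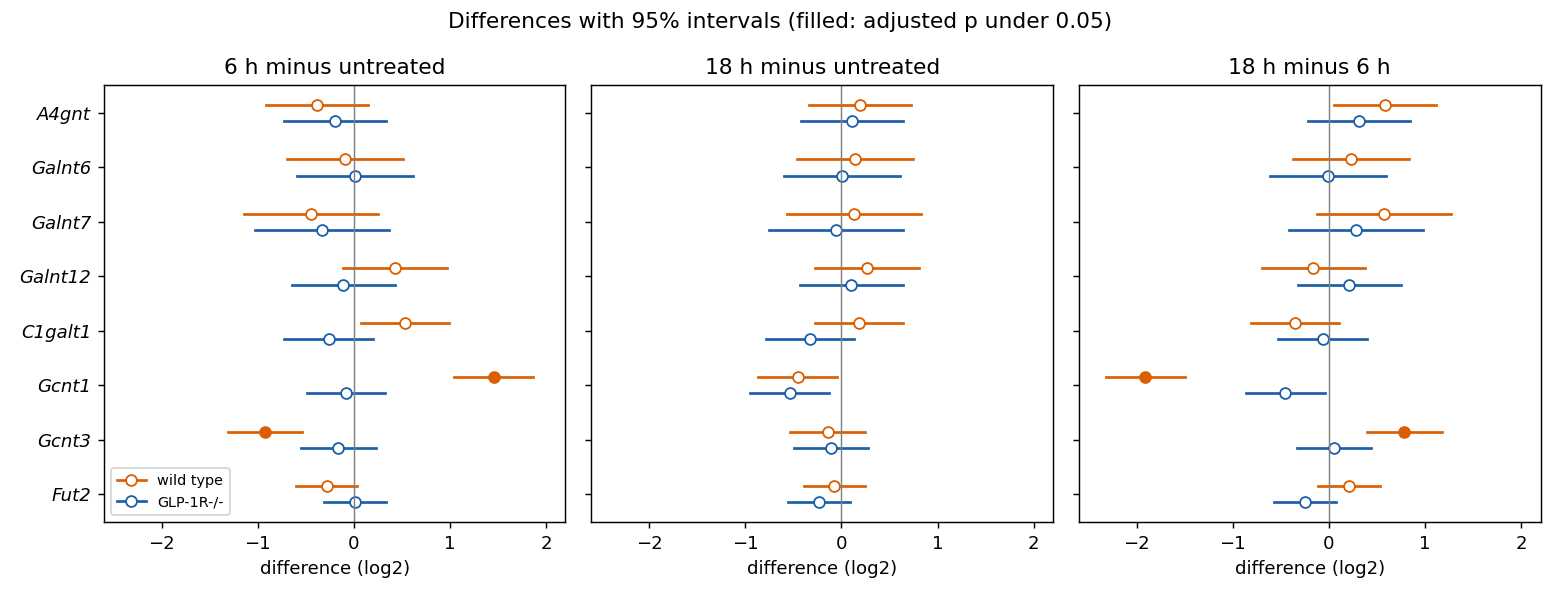
Differences in RMA signal (log2) of the 8 tested genes at 6 h and at 18 h against untreated mice and at 18 h against 6 h, in wild-type (orange) and GLP-1R-/- mice (blue), from limma with 95% intervals over 3 arrays a group; filled points have an adjusted p under 0.05. The filled points are Gcnt1 and Gcnt3 in wild-type mice, at 1.45 and -0.92 at 6 h and at -1.91 and 0.78 between the times.

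C1galt1 (ENSMUSG00000042460_at), the galactosyltransferase that makes core 1, supplies the structure that Gcnt1 and Gcnt3 branch. Its signal in wild-type mice was 8.22, 8.48 and 8.28 untreated, 8.78, 8.89 and 8.92 at 6 h, and 8.68, 8.47 and 8.39 at 18 h. The 6 h arrays lay above all other wild-type arrays. In knockouts it was 8.72, 8.66 and 8.79 untreated, 7.75 in replicate 13, 8.88 and 8.75 at 6 h, and 8.47, 8.12 and 8.61 at 18 h. The highest group mean was 8.86, in wild-type mice at 6 h, and the lowest 8.33, in untreated wild-type mice, and all neighbours in the order of means overlapped.

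The difference of C1galt1 at 6 h in wild-type mice was 0.54, or 1.45-fold (SE 0.217, limma adjusted p = 0.238), and did not pass. Leaving out replicate 13 did not alter this difference, since that array is in neither group, but lowered its SE to 0.125 and its limma adjusted p to 0.0163. With that array left out, the 6 h comparison in wild-type mice had 3 members called, where 6.89% of all genes were called. Untreated knockouts differed from untreated wild-type mice by 0.40 (95% interval -0.06 to 0.86, limma adjusted p = 0.763), and the groups did not overlap. The genotype difference in the 6 h change was 0.80 (95% interval 0.15 to 1.45, limma adjusted p = 0.362), or 0.44 without replicate 13 (limma adjusted p = 0.361).

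The initiating transferases Galnt6 (ENSMUSG00000037280_at), Galnt7 (ENSMUSG00000031608_at) and Galnt12 (ENSMUSG00000039774_at) place the first sugar. Galnt12 lay between 11.62 and 12.13 in untreated wild-type mice and between 12.23 and 12.47 at 6 h, without overlap. Its difference was 0.43 (95% interval -0.11 to 0.96, limma adjusted p = 0.495), and it did not pass. In knockouts Galnt12 was between 11.56 and 12.17 untreated, at 11.07, 12.22 and 12.18 at 6 h, and between 11.96 and 12.14 at 18 h.

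Galnt7 prefers substrates that already carry a GalNAc, so that it acts after other family members. In wild-type groups its signal varied more between mice than that of the other members: it was 10.91, 11.66 and 11.68 in untreated wild-type mice, 10.98, 10.36 and 11.57 at 6 h and 12.42, 10.98 and 11.24 at 18 h. The SD within the wild-type groups was 0.441, 0.604 and 0.769, while in knockouts it was 0.257 untreated, 0.233 at 6 h and 0.0330 at 18 h, below that of A4gnt and Galnt12 in each of these groups. Its differences in wild-type mice were -0.45 at 6 h (95% interval -1.15 to 0.25, limma adjusted p = 0.625) and 0.13 at 18 h (95% interval -0.57 to 0.83, limma adjusted p = 0.951).

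Galnt6, whose group means differed least, was between 9.30 and 9.59 in untreated wild-type mice and between 9.27 and 9.56 at 6 h. At 18 h it was 8.99, 9.86 and 10.05. Wild-type 18 h replicate 10, which had the highest Galnt7 signal of the 18 arrays, thus had the lowest Galnt6 signal of its group. The 6 h difference of Galnt6 in wild-type mice was -0.09 (95% interval -0.70 to 0.51, limma adjusted p = 0.951). In knockouts the differences of the 3 initiating transferases from untreated mice lay between -0.33, for Galnt7 at 6 h, and 0.10, for Galnt12 at 18 h, with limma adjusted p of 0.703 or more. Without replicate 13 the knockout 6 h differences were 0.34 for Galnt6, 0.26 for Galnt12, which had been -0.11, and -0.20 for Galnt7, with limma adjusted p of 0.938 or more. All neighbouring group means of Galnt6, Galnt7 and Galnt12 overlapped in their arrays.

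A4gnt (ENSMUSG00000037953_at), which adds the terminal N-acetylglucosamine, had a signal between 11.53 and 12.83 over the 18 arrays. In wild-type mice it was 12.28, 12.48 and 12.47 untreated, 11.91, 12.34 and 11.83 at 6 h, and 12.75, 12.55 and 12.53 at 18 h. The 18 h arrays lay above those of both other wild-type groups, and the 6 h arrays overlapped the untreated ones. In knockouts it was 12.10, 12.57 and 12.78 untreated, 11.53 in replicate 13, 12.83 and 12.51 at 6 h, and 12.50, 12.59 and 12.70 at 18 h. Its highest group mean was 12.61, in wild-type mice at 18 h, and its lowest 12.02, in wild-type mice at 6 h, with overlap between all neighbours in the order of means.

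The 6 h difference of A4gnt in wild-type mice was -0.39 (95% interval -0.92 to 0.14, limma adjusted p = 0.551) and the 18 h difference 0.20 (95% interval -0.33 to 0.73, limma adjusted p = 0.882). Between 6 h and 18 h the difference was 0.58 (95% interval 0.05 to 1.11, limma adjusted p = 0.164). Without replicate 13 this last difference, which does not use that array, had an SE of 0.166 and a limma adjusted p of 0.0219. With that array left out, 3 members, Gcnt1, Gcnt3 and A4gnt, were called between the times in wild-type mice, where 18.9% of all genes were called. The A4gnt difference was also called with quantile normalization (0.72, limma adjusted p = 0.0477) and with array quality weights (0.60, limma adjusted p = 0.00557). A fit to the compared groups alone called it too (0.58, limma adjusted p = 0.0456), and the other 22 of 26 alternatives did not. In knockouts A4gnt differed from untreated mice by -0.20 at 6 h (95% interval -0.73 to 0.33, limma adjusted p = 0.763), or by 0.18 without replicate 13, and by 0.11 at 18 h (95% interval -0.42 to 0.64, limma adjusted p = 0.999).

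Fut2 (ENSMUSG00000055978_at), which adds the fucose of the H antigen in secretions, was at 6.81, 6.93 and 6.97 in untreated wild-type mice, at 6.56, 6.36 and 6.94 at 6 h and at 6.68, 6.83 and 6.99 at 18 h. In knockouts it was 7.03, 7.17 and 7.15 untreated, 7.03, 7.28 and 7.09 at 6 h, and 6.65, 7.12 and 6.88 at 18 h. Knockout arrays lay above the wild-type arrays in untreated mice and at 6 h, and overlapped them at 18 h. The genotype difference at 6 h was 0.51 (SE 0.152, limma adjusted p = 0.056) and that in untreated mice 0.21 (95% interval -0.11 to 0.53, limma adjusted p = 0.936), and neither passed. Without wild-type 6 h replicate 9, whose Fut2 signal was the highest of its group, the difference at 6 h was 0.67 (limma adjusted p = 0.0207). It was also called with quantile normalization (0.50, limma adjusted p = 0.0496) and with array quality weights (0.61, limma adjusted p = 0.00238). The other 23 of 26 alternatives did not call it.

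B3gnt6 (ENSMUSG00000074004_at), the core 3 enzyme best known from the colon, had a signal between 4.39 and 4.76 on 17 arrays and of 5.19 on replicate 13, the lone array above the filter level of 4.79. It was therefore not tested, and RMA gives no detection call that would tell a dim gene from an absent one. Group means lay between 4.43 in untreated knockouts and 4.71 in knockouts at 6 h, and all neighbouring groups overlapped. In a fit without the filter none of its 10 pairwise and averaged differences or its 3 interactions was called, with limma adjusted p of 0.578 or more.

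The change after treatment was also compared directly between the genotypes. Without vehicle-injected or time-matched controls, injection, hour of collection and agonist cannot be told apart in that change. Whether a response to exendin-4 itself needs the receptor was therefore not tested. The wild-type change of Gcnt1 at 6 h exceeded that of knockouts by 1.54 log2 units (SE 0.274, limma adjusted p = 0.0205). It was the only tested member called there, where 0.376% of all genes were called. The adjusted p lay between 0.00904 and 0.0732 over 26 alternatives, and the call was lost when wild-type untreated replicate 1 or 2, wild-type 6 h replicate 8 or 9, or knockout untreated replicate 4 was left out and in a fit to the 4 groups alone, with differences between 1.38 and 1.54. For the change from 6 h to 18 h the genotypes differed in Gcnt1 by -1.45 (SE 0.274, limma adjusted p = 0.0123, at most 0.0407 over 26 alternatives), where 1.54% of all genes were called.

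For Gcnt3 the genotype difference in the 6 h change was -0.76 (SE 0.260, limma adjusted p = 0.283), and that in the change from 6 h to 18 h was 0.73 (SE 0.260, limma adjusted p = 0.193). Without replicate 13 these were -1.06 (SE 0.161, limma adjusted p = 0.00657) and 1.02 (SE 0.161, limma adjusted p = 0.00542). With that array left out, Gcnt1 and Gcnt3 were both called in each of these contrasts, where 0.853% and 2.22% of all genes were called. At 18 h against untreated mice limma called 0 members in the genotype difference, where 0.0235% of all genes were called, and 0 of the 8 had an unadjusted p under 0.05, against 4.70% of all genes.

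Direct comparison of the genotypes gave the same 2 genes at 6 h and none at the other states. At 6 h the knockout minus wild-type difference of Gcnt1 was -1.94, or 3.82-fold lower in knockouts (SE 0.194, limma adjusted p = 3.61e-05). Gcnt3 was higher in knockouts by 0.71, or 1.64-fold (SE 0.184, limma adjusted p = 0.0299), where 6.07% of all genes were called. Without replicate 13 the Gcnt3 difference was 1.004, or 2.01-fold (limma adjusted p = 0.000197), and 6.16% of all genes were called. It did not pass without wild-type 6 h replicate 7 or 9 or without knockout 6 h replicate 14 or 15, where it lay between 0.54 and 0.72 with limma adjusted p of 0.078 to 0.12. Untreated mice had 0 members called, where 0.618% of all genes were called, and mice at 18 h 0, where 1.27% were called. There 0 and 1 members, the latter Gcnt1, had an unadjusted p under 0.05, as did 7.53% and 12.2% of all genes.

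Averaged over the 3 treatment states, the knockout minus wild-type difference of Gcnt1 was -0.94 (SE 0.112, limma adjusted p = 5.79e-05). Gcnt1 was the lone member called, where 7.03% of all genes were called. The differences behind this mean were -0.40 untreated, -1.94 at 6 h and -0.48 at 18 h. Averaged without the 6 h groups, a setting chosen after the data were seen, the difference was -0.44 (limma adjusted p = 0.105). Without replicate 13, Gcnt3 was called as well, higher in knockouts by 0.31 (SE 0.0646, limma adjusted p = 0.0059), where 10.3% of all genes were called, and averaged without the 6 h groups its difference was -0.04. Fut2 differed by 0.26 (95% interval 0.07 to 0.44, limma adjusted p = 0.0916), and the other 5 tested members between -0.24 for Galnt12 and 0.11 for A4gnt, leaving out Gcnt3 at 0.21.

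Likeness of pattern was measured as the root mean square difference over the 18 arrays, after each gene was centred on its own mean. The 3 tested genes closest to Gcnt1 lay at 0.336, 0.337 and 0.341 from it on the log2 scale, against a spread of Gcnt1 about its own mean of 0.788 by the same measure. For Gcnt3 the closest 3 lay at 0.147, 0.169 and 0.178, against 0.365. These genes were picked as the nearest of all tested genes, and whether they lie closer than by chance was not tested. They have no name in the tables used here and are not named.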

How the data were processed

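The authors deposited log2 signals, 1 row per Ensembl mouse gene, and the submitters' processing notes name RMA as the method. No array model, probe set definition or build is given in the sources used here. The 9 members were matched by Ensembl identifier, and their symbols come from the list that defined the set. RefSeq (GRCm38.p6) held all 9 symbols but Ensembl identifiers in 0 rows, so the receptor gene, other pathway genes and cell type markers could not be looked up and are not analysed here. Arrays were grouped by title. Linear models with group means as coefficients were run on 12775 genes (at least 3 of 18 arrays above the 30th percentile) with limma 3.58.1 in R 4.3.3 and eBayes, with two-sided p-values and Benjamini-Hochberg adjustment over those genes. The script was tested on simulated data. Intervals are 95% limits of the moderated test. All members are named, and members and lists were chosen with earlier results of these data known. No read depth exists for arrays, and 3 arrays a group limit the precision. The design text states individual mice, so arrays count as biological replicates. Alternatives covered filter, scaling, array weights, prior variance, groups in the fit and each array left out. Promoter windows are RefSeq's, without the bases after the start.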

Additional observations from a re-analysis of the deposited data

Results flagged for a closer look

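The 6 h change of Gcnt1 differed between wild-type and GLP-1R-/- mice by 1.54 on the log2 scale (limma adjusted p = 0.0205), and it was higher on 3 of 3 wild-type 6 h arrays than on any untreated wild-type array. Its change from 6 h to 18 h differed between the genotypes by -1.45 (limma adjusted p = 0.0123). The 2 contrasts share the wild-type 6 h arrays and are not independent. Signs of RNA quality and cell type markers were not analysed, and their part in these differences was not tested. Without knockout 6 h replicate 13 the differences were 1.43 (limma adjusted p = 0.0253) and -1.35 (limma adjusted p = 0.0190). The call at 6 h was lost without wild-type untreated replicate 1 or 2, wild-type 6 h replicate 8 or 9, or knockout untreated replicate 4, with limma adjusted p between 0.0529 and 0.0693.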

How the results depend on the processing

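No paired analysis was possible because each replicate number in the labels is used once, so no groups share numbers. Of 104 member differences 9 were called, and 0 of these turned sign under the 26 alternatives of each result. Of the 95 not called, 46 turned sign in at least 1 alternative, all of size 0.38 or less, and 15 were called in at least 1, all 15 of them with array quality weights, which gave replicate 13 a weight of 0.0840. With those weights the members called were 5 over the 6 groups (35% of all genes called) and 5 between genotypes at 6 h (17.9%), 4 between the times in wild-type mice (26.8%), 4 in the genotype difference of that change (11.8%), 4 in the genotype mean (18.3%), 3 at 6 h in wild-type mice (9.73%), 2 in the genotype difference at 6 h (2.22%), and 1 each between the times in knockouts (3.56%) and between genotypes at 18 h (12.4%). After each array was centred on its median, the count was 1 over the 6 groups and 1 between genotypes at 6 h, where Gcnt3 was at 0.64 (limma adjusted p = 0.0881). In fits restricted to the compared groups it was 0 in the genotype difference at 6 h, where Gcnt1 was at 1.54 (limma adjusted p = 0.0732), and 1 between genotypes at 6 h, where Gcnt3 was at 0.71 (limma adjusted p = 0.305). Averaging genotypes without the 6 h groups, chosen after the data were seen, left 0 members called, Gcnt1 at -0.44. The cause was not tested. Leaving out 1 array gave 1 to 3 members called over the 6 groups, at 6 h and between the times in wild-type mice, 0 to 2 in the genotype difference at 6 h, and 1 to 2 in that between the times, between genotypes at 6 h and in the genotype mean. Over those fits the Gcnt1 genotype difference at 6 h lay between 1.38 and 1.69, and Gcnt3 between 0.54 and 1.004 for genotypes at 6 h, -1.01 and -0.83 for the wild-type 6 h change and 0.69 and 0.87 between the times. The count over all genes at 6 h in wild-type mice, 433, lay between 176 and 880 with 1 array left out and was 1243 with array weights. In the same order of settings the count between the times in wild-type mice, 1389, was 810 to 2419 and 3423, that between genotypes at 6 h, 775, was 420 to 1004 and 2293, and that of the genotype difference at 6 h, 48, was 17 to 109 and 284. Over all alternatives the counts over all genes lay between 4 and 212 at 18 h in wild-type mice (25 as reported), 31 and 177 between untreated genotypes (79), 40 and 1589 between genotypes at 18 h (162), 383 and 2335 in the genotype mean (898), 1 and 19 in the genotype difference at 18 h (3), 87 and 1512 in that between the times (197) and 677 and 4474 over the 6 groups (1217). In knockouts, with 0 as reported, they reached 1 at 6 h, 22 at 18 h and 455 between the times. In fits restricted to the compared groups the count between genotypes at 6 h was 98 and that in the genotype difference at 6 h was 12.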
